A study of Homo sapiens with 16 samples.

Results

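Parental PC9 cells, a human lung adenocarcinoma line known for an activating deletion in the EGFR kinase, were set against parental MDA231 cells, a human triple-negative breast cancer line known for an active MAPK pathway and for a spindle-shaped, mesenchymal look. The comparison rests on 4 of the 16 RNA-seq libraries of the series, namely 2 libraries of PC9 parental cells and 2 of MDA231 parental cells, chosen by their labels. Neither parental group carries a hairpin, and both were grown in dishes. The other groups used here are LeptoM cells of each line, derivatives selected for growth in the leptomeninges (the membranes around the brain) that carry a control hairpin (shCTL), again with 2 libraries per line. Separate cultures are not stated for the libraries of a group, so the spread between them may be technical.

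Levels are reads of a gene scaled to 1000000 gene reads per library (RPM), which are not corrected for gene length and so are compared for the same gene between libraries and not between genes. The PC9 table listed 19454 genes and 17954 were listed for MDA231, and 16557 were matched by gene ID. Of these, 12613 had a mean of at least 1 RPM over the 4 parental libraries and were compared. Another 2897 genes were listed for PC9 alone and 1397 for MDA231 alone. They entered no count, so genes read mainly in 1 line may be missing from the counts. Every gene listed for a line had at least 15 reads over its 8 libraries. Whether genes not listed for a line had fewer was not tested. A gene was counted as higher in a line when each of that line's libraries lay at least 4-fold above each library of the other, with values under 3 reads set to 3 reads. This is a count of large differences and not a test, because the lines were normalized in separate tables and 2 against 2 libraries cannot give a two-sided exact permutation p under 0.333. Log2 ratios are of line means, PC9 over MDA231.

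The PC9 parental libraries held 44379970 and 37564003 gene reads, against 11592790 and 11613984 in the MDA231 parental libraries, so 3 reads amount to 0.0676 and 0.0799 RPM in PC9 but to 0.259 and 0.258 RPM in MDA231. A gene with no read in an MDA231 library may thus have had up to that level, and floors and intervals cover counting error only. Mitochondrial transcripts made up 3.33% and 3.48% of gene reads in PC9, against 0.839% and 0.944% in MDA231. Between the libraries of a line, the median gene differed by 0.11 in PC9 and 0.24 in MDA231 on the log2 scale, and 12 and 45 genes differed by 4-fold or more. The difference between replicates followed gene GC content in both lines across 11375 genes (Spearman correlation -0.596 in PC9 and 0.748 in MDA231, replicate 1 minus replicate 2), and PC9 minus MDA231 differences followed it by 0.296 to 0.537. Line, tissue of origin and table are the same split here and cannot be told apart.

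Carcinoma cells of epithelial type are joined to their neighbours by adherens junctions built on E-cadherin, by tight junctions and by desmosomes, and they are stiffened inside by keratin filaments. Transcription factors of the GRHL, OVOL and ELF families and the splicing factors ESRP1 and ESRP2 maintain this state, while ZEB1, ZEB2 and the SNAIL proteins repress it by binding E-box sequences in epithelial promoters. Cells of mesenchymal type replace keratins with vimentin and make proteins that attach to and cut the surrounding matrix. Lung and breast tumours also keep traces of their tissue in lineage factors such as NKX2-1 in the alveoli and ESR1, GATA3 and FOXA1 in mammary ducts.

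Of the 12613 genes, 1185 (9.4%) were higher in PC9 and 724 (5.74%) were higher in MDA231 by this count, and the median log2 ratio over all genes was 0.04. In all, 15.1% of genes were at least 4-fold apart, and the libraries of the lines did not overlap for 87.9%. Of the genes higher in PC9, 110 had no read in either MDA231 parental library, and of those higher in MDA231, 13 had no read in either PC9 parental library. At the edge of the count lay MAPK8IP1 with a nearest-library fold of 4.0016 and OSR2 with 3.9944 on the PC9 side, and KBTBD8 with 4.0027 and TNFRSF10D with 3.9977 on the MDA231 side. Gene lists below were assembled from known biology, but with earlier results of these data known. Their counts therefore describe the lists and are not independent support. Each list share is to be read beside these background shares, 9.4% for PC9 and 5.74% for MDA231.

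The genes with the largest folds between nearest libraries were spread over immune sensors, secreted proteins and matrix enzymes. MMP1, the interstitial collagenase, had 0.0901 and 0.106 RPM in PC9, against 2867 and 3500.3 RPM in MDA231, a 26921-fold gap between the nearest libraries that rests on 4 reads in each PC9 library. SERPINB2, a plasminogen activator inhibitor, had 0 and 0.0266 RPM in PC9, which is 1 read in all, against 264 and 315 RPM in MDA231. In the other direction NLRP2, an inflammasome-related NOD-like receptor, had 606 and 582 RPM in PC9 and no read in MDA231, a difference of at least 2297-fold. OLR1, a scavenger receptor for oxidised LDL, had 257 and 242 RPM in PC9 and no read in MDA231, and ANO1, a calcium-activated chloride channel, had 310.1 and 314 RPM in PC9, against 0.345 and 0.172 RPM in MDA231. The neighbouring X-linked genes ARMCX1 and ARMCX2 stood together at the MDA231 end. ARMCX2 had 0.0676 and 0.0799 RPM in PC9, against 97.6 and 90.1 RPM in MDA231, and ARMCX1 had 0.0451 and 0.0532 RPM in PC9, against 64.4 and 70.7 RPM in MDA231. STC2, NETO2 and SFRP1 were among the 10 genes farthest towards PC9, and PNMA2, GPR116, LIX1L, RIMS2 and the antisense transcript SLC7A11-AS1 were among the 10 farthest towards MDA231. No source used here gives the strand setting of the counting, and reads of SLC7A11-AS1 and of its partner cannot be told apart.

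**Figure D1:**
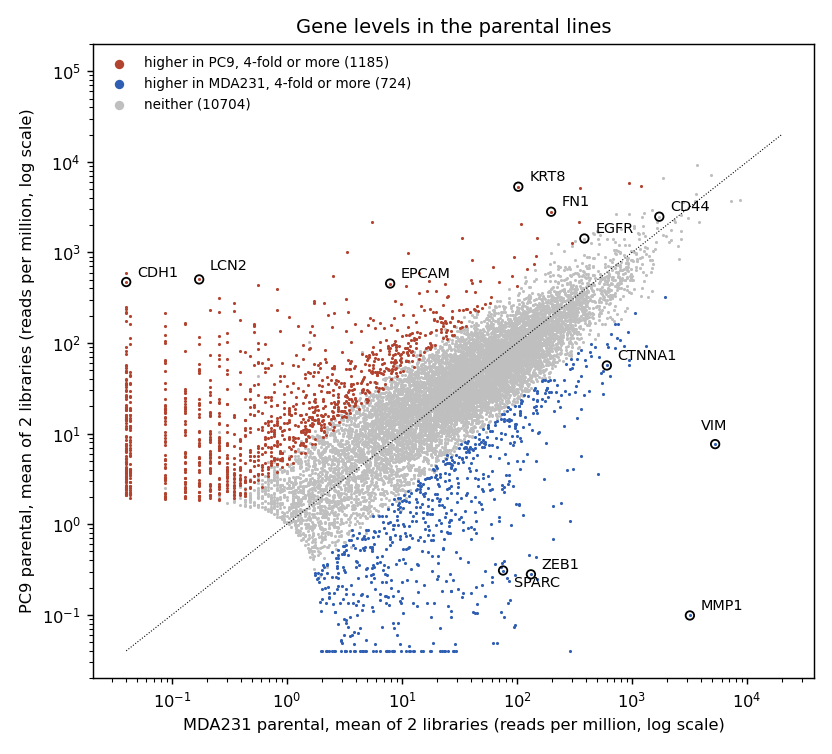
Level of each of the 12613 genes compared, as the mean of 2 libraries in RPM on log axes, with parental PC9 on the vertical axis and parental MDA231 on the horizontal axis; the dotted line marks equal levels, and means under 0.04 are drawn at 0.04. CDH1 and LCN2 lie at the left edge, where MDA231 had 0 to 4 reads, and VIM, ZEB1, SPARC and MMP1 lie low on the right, far below the line.

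Keratins of simple epithelia were far higher in PC9 than in MDA231, with a lone exception. All 6 of the members compared, of 9 in the list, were at least 4-fold apart. Of these, 5 (83.3%) were higher in PC9 and 1 (16.7%) in MDA231, beside 9.4% and 5.74% of all genes compared. The list's median log2 ratio was 4.65, against 0.04 over all genes. KRT7, a keratin of glandular epithelium, had 1964 and 2368 RPM in PC9, against 6.21 and 4.65 RPM in MDA231. KRT8, the type II partner of KRT18, had 4755 and 5876 RPM in PC9, against 130.3 and 74.9 RPM in MDA231. The groups were far apart, although the MDA231 libraries themselves differed by more than the PC9 libraries on the fold scale. KRT18 averaged 5127 ± 22.5 RPM in PC9, against 354 ± 75.8 RPM in MDA231 (SD, n = 2 each), a log2 ratio of 3.86. KRT19, a small keratin of ducts, had 1326 and 1559.9 RPM in PC9, against 40.97 and 25.2 RPM in MDA231, and KRT80 had 188 and 203 RPM in PC9, against 30.6 and 23.9 RPM in MDA231. The exception was KRT81, best known as a hair keratin, with 1.15 and 1.89 RPM in PC9, against 11.9 and 8.35 RPM in MDA231. KRT8 and KRT18 have many processed pseudogenes and overlap each other on opposite strands in the GENCODE v29 annotation, so their levels carry that uncertainty. KRT80 was under 4-fold once a trend with GC content was removed, and KRT81 was under 4-fold once PC9 was thinned to the depth of MDA231.

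Cell-cell junction genes were likewise higher in PC9, with E-cadherin at their head. Of 40 listed genes, all 33 found in both tables were compared, and 20 (60.6%) were higher in PC9, 1 (3.03%) was higher in MDA231 and 12 were less than 4-fold apart, with a median log2 ratio of 3.13. CDH1 (ENSG00000039068.14), which encodes E-cadherin and lies on chromosome 16 at 68737225 to 68835548 of GRCh38, had 490.3 and 452 RPM in PC9 and no read in either MDA231 library. With MDA231 set to 3 reads per library this is a difference of at least 1822-fold. CDH3, which encodes P-cadherin, had 198 and 200.2 RPM in PC9, against 0.0863 and 0 RPM in MDA231. The MDA231 value was 1 read, and the ratio of pooled RPM was 4624 (95% counting interval 829.7 to 182632). EPCAM, an adhesion protein of epithelial surfaces, had 471 and 437 RPM in PC9, against 7.07 and 8.70 RPM in MDA231, a log2 ratio of 5.85. EPCAM was thus detected in MDA231, while CDH1 was not detectable at this depth.

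Genes of each junction type took part. Among tight junction genes, CLDN4 had 132 and 173 RPM in PC9, against 1.73 and 1.55 RPM in MDA231, and CLDN7 had 214 and 255 RPM in PC9, against 16.5 and 14.6 RPM in MDA231. F11R, which encodes the junctional adhesion molecule A, had 151 and 140.2 RPM in PC9, against 6.38 and 7.49 RPM in MDA231. Among desmosomal and plaque genes, JUP, which encodes plakoglobin, had 245 and 315 RPM in PC9, against 2.85 and 1.38 RPM in MDA231, and PPL, which encodes periplakin, had 107 and 123 RPM in PC9, against 0.259 and 0.0861 RPM in MDA231. The polarity genes CRB3 and LLGL2 had 5.90 and 7.59 and 28.1 and 44.03 RPM in PC9 (replicates 1 and 2 of each), against 0 and 0 and 0.0863 and 0.0861 RPM in MDA231. ST14, a membrane serine protease of epithelia, had 139 and 189 RPM in PC9, against 0.173 and 0.0861 RPM in MDA231, and SPINT1, its inhibitor, had 133 and 133 RPM in PC9, against 0.949 and 0.0861 RPM in MDA231. MAL2, a protein of transport to the apical surface, had 443 and 431 RPM in PC9, against 0.431 and 0.689 RPM in MDA231. In each of these genes, every PC9 library lay above every MDA231 library, while the lines did not overlap for 87.9% of all genes compared.

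Several junction genes were less than 4-fold apart. TJP1, which encodes the scaffold ZO-1, had 115 and 107 RPM in PC9, against 91.95 and 85.2 RPM in MDA231. DSG2, a desmosomal cadherin, had 298 and 279 RPM in PC9, against 258 and 263 RPM in MDA231, and DSP, which encodes desmoplakin, had 286 and 265 RPM in PC9, against 87.2 and 83.95 RPM in MDA231. CTNND1, which encodes the cadherin partner p120 catenin, had 371 and 335 RPM in PC9, against 136 and 131 RPM in MDA231. CTNNB1, which encodes beta-catenin, had 342 and 318 RPM in PC9, against 595 and 651 RPM in MDA231, a log2 ratio of -0.92. The lone junction gene higher in MDA231 was CTNNA1, which encodes alpha-catenin, the link between the cadherin complex and actin. It had 59.1 and 53.9 RPM in PC9, against 631 and 576 RPM in MDA231, 9.74-fold apart between the nearest libraries. PC9 is known from older work as a line in which alpha-catenin protein is missing and E-cadherin is made but does not join the cells firmly.

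Regulators of the epithelial state were divided between genes that were all but missing from MDA231 reads and genes that were shared. Of 21 listed regulators, 12 were compared, 7 (58.3%) were higher in PC9 and 1 (8.33%), FOXA2, was higher in MDA231, with a median log2 ratio of 3.63. ESRP1, which directs epithelial splicing, had 223 and 206 RPM in PC9, against 0 and 0.172 RPM in MDA231, and the ratio of pooled RPM was 2498 (95% counting interval 691 to 20629.5). ESRP2 had 53.9 and 59.3 RPM in PC9, against 1.29 and 0.947 RPM in MDA231. ELF3, an epithelial ETS factor, had 35.7 and 36.7 RPM in PC9, against 0.0863 and 0 RPM in MDA231, which is 1 read, and its ratio was 839 (95% counting interval 151 to 33166). GRHL1, a GRHL factor of surface epithelia, had 34.1 and 29.98 RPM in PC9, against 1.04 and 1.46 RPM in MDA231. In contrast, EHF, a close relative of ELF3, had 151 and 141 RPM in PC9, against 101 and 112 RPM in MDA231, and KLF5 had 44.6 and 44.5 RPM in PC9, against 21.7 and 25.7 RPM in MDA231. Their log2 ratios were 0.45 for EHF and 0.91 for KLF5. GRHL2, the best known GRHL factor of epithelia, had 131 and 127 RPM in PC9, and OVOL1 had 17.2 and 20.02 RPM. For MDA231 neither was analysed here.

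**Figure D2:**
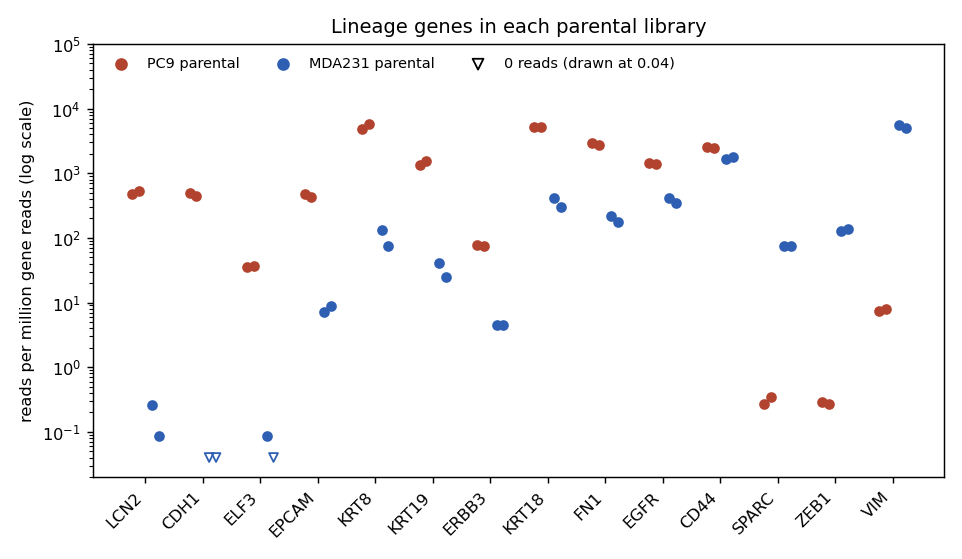
Level of 14 lineage genes in each parental library, in RPM on a log axis, with the 2 PC9 libraries left of the 2 MDA231 libraries for each gene and genes in order of their ratio; open triangles mark libraries with no read. The libraries of the lines do not overlap for any gene shown, as is the case for 87.9% of all genes compared. CD44 and EGFR are less than 4-fold apart.

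Mesenchymal genes were mixed, and MDA231 was not higher throughout. Of 10 regulators compared among 18, 2 (20%) were higher in PC9 and 3 (30%) in MDA231, and the median log2 ratio was -0.47. ZEB1 (ENSG00000148516.17), a repressor of epithelial genes, had 0.293 and 0.266 RPM in PC9, against 128 and 136 RPM in MDA231, a log2 ratio of -8.88. ZEB2 had 0.315 and 0.0532 RPM in PC9, against 26.7 and 26.8 RPM in MDA231, and SNAI2, which encodes SLUG, had 4.57 and 4.31 RPM in PC9, against 18.9 and 20.6 RPM in MDA231. SNAI2 lay only just past 4-fold, with a nearest-library fold of 4.13, and was no longer past it when PC9 was thinned or a GC trend was removed. SNAI1, which encodes SNAIL, went the other way with 2.82 and 3.54 RPM in PC9, against 0.0863 and 0.0861 RPM in MDA231, and a ratio of pooled RPM of 36.5 (95% counting interval 10.01 to 303). That difference was under 4-fold with a floor of 10 reads per library. TCF4 was also higher in PC9, with 8.97 and 8.57 RPM in PC9, against 1.73 and 1.81 RPM in MDA231. HMGA2, a chromatin protein of many invasive tumours, had 193 and 183 RPM in PC9, against 126 and 121 RPM in MDA231.

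Among 20 structural and surface genes compared from a list of 30, 4 (20%) were higher in PC9 and 6 (30%) in MDA231, with a median log2 ratio of -0.75. VIM (ENSG00000026025.9), which encodes the filament protein vimentin and lies on chromosome 10 at 17228259 to 17237593 of GRCh38, averaged 7.66 ± 0.504 RPM in PC9, against 5279 ± 319.7 RPM in MDA231 (SD, n = 2 each). Its nearest libraries were 631-fold apart. SPARC, a matrix-binding glycoprotein, had 0.270 and 0.346 RPM in PC9, against 75.2 and 76.03 RPM in MDA231. LOX, which cross-links collagen, had 0.924 and 1.09 RPM in PC9, against 57.02 and 62.3 RPM in MDA231. AXL, a receptor tyrosine kinase tied to mesenchymal states, had 56.2 and 57.3 RPM in PC9, against 1059 and 812 RPM in MDA231, and NT5E, which encodes the surface marker CD73, had 137 and 129 RPM in PC9, against 878 and 970.5 RPM in MDA231. These 5 genes and MYL9 made up the members higher in MDA231.

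The members higher in PC9 included classical mesenchymal markers. FN1, which encodes fibronectin, averaged 2813 ± 168 RPM in PC9, against 198 ± 27.6 RPM in MDA231 (SD, n = 2 each), a log2 ratio of 3.83. CDH2, which encodes N-cadherin, had 25.6 and 23.7 RPM in PC9, against 0 and 0.258 RPM in MDA231, and the ratio of pooled RPM was 192 (95% counting interval 65.4 to 929.6). Parental PC9 thus held RNA of E-cadherin, P-cadherin and N-cadherin, while MDA231 had at most 3 reads of each over both libraries. LCP1, an actin-bundling protein, had 177 and 162 RPM in PC9, against 22.3 and 21.4 RPM in MDA231, and NES, which encodes nestin, had 21.99 and 23.99 RPM in PC9, against 3.80 and 2.76 RPM in MDA231. The NES difference was under 4-fold once a GC trend was removed. CD44, the hyaluronan receptor, had 2525 and 2436 RPM in PC9, against 1664 and 1788 RPM in MDA231, a log2 ratio of only 0.52, and MSN, which encodes moesin, had 2966 and 2848 RPM in PC9, against 1567 and 1437 RPM in MDA231. CDH11 was analysed in MDA231 alone, with 8.02 and 8.09 RPM.

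ZEB and SNAIL proteins bind the E-box CACCTG, read as CAGGTG on the opposite strand, so the 250 bases before the first start that RefSeq lists for genes on either side of the split were searched for it on both strands. RefSeq promoter sequences of GRCh38.p14 held an entry for 15 of 32 epithelial genes higher in PC9, and 6 of the 15 (40%) held the motif. They held an entry for 7 of 9 mesenchymal genes higher in MDA231, and 2 of the 7 (28.6%) held it, against 6143 of all 35116 entries (17.5%). The gene groups count 1 entry per gene while the 17.5% counts every entry, so these shares may not be of like units. A match describes these letters and not a bound site, and so few genes allow no comparison of the shares. Of the 22 windows, 4 (those of KRT8, CLDN4, ELF3 and ZEB2) lay over 1000 bases from the gene's outermost start in GENCODE v29. No annotated exon was overlapped by 7, and 4 of those, all within 54 bases of the gene's start in that annotation, are printed, chosen after the matches were seen, to show a promoter with several motifs, with 1 and with none on the epithelial side, and that of vimentin. MYO5B, a myosin of apical transport, had 58.2 and 56.1 RPM in PC9, against 10.4 and 8.61 RPM in MDA231, and PRRG4, a transmembrane Gla protein, had 48.1 and 46.7 RPM in PC9, against 4.92 and 5.94 RPM in MDA231. Sequences run 5′ to 3′ on the gene's strand and end at the base before the start, with the motif in capitals.
MYO5B, chr18:50195148-50195397, minus strand, 3 motifs: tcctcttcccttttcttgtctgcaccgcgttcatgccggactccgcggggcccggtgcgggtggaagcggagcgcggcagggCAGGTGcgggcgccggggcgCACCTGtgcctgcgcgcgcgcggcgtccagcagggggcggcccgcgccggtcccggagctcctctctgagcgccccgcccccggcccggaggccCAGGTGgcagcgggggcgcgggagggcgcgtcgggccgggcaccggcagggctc
PRRG4, chr11:32829677-32829926, plus strand, 1 motif: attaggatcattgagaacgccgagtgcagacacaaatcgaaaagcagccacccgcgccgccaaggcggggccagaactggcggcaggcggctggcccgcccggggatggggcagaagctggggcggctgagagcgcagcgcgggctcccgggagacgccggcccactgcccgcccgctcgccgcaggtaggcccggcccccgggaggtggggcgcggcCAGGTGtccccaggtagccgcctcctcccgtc
GRHL1, chr2:9951443-9951692, plus strand, no motif: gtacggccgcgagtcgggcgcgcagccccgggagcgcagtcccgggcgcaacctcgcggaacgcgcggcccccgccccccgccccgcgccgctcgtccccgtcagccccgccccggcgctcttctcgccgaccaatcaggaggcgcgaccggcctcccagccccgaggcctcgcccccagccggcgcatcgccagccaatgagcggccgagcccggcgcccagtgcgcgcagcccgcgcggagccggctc
VIM, chr10:17227991-17228240, plus strand, no motif: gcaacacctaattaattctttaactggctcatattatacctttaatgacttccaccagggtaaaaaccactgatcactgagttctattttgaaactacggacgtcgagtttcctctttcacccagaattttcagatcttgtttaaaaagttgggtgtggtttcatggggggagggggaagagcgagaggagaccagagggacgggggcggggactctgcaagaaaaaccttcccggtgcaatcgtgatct
GC content was 80% in the MYO5B window, 74% in PRRG4, 81.6% in GRHL1 and 46% in VIM.

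Matrix genes were divided between the lines. Of 24 compared among 33, 8 (33.3%) were higher in PC9 and 6 (25%) in MDA231, with a median log2 ratio of 1.32 that came down to 0.30 when a GC trend was removed. LAMB1 and LAMA3 encode laminin chains of basement membranes. LAMB1 had 384 and 371 RPM in PC9, against 39.2 and 33.3 RPM in MDA231, and LAMA3 had 260.1 and 247 RPM in PC9, against 16.04 and 13.4 RPM in MDA231. COL7A1, the collagen of anchoring fibrils, had 132 and 183 RPM in PC9, against 7.94 and 2.15 RPM in MDA231. These 3 genes were at least several-fold higher in each PC9 library than in each MDA231 library. LAMA5, COL18A1 and COL1A1 were also higher in PC9 by the count, and all 3 lost it when the GC trend was removed. On the MDA231 side, COL8A1, a short-chain collagen, had 0.834 and 0.532 RPM in PC9, against 219.8 and 192 RPM in MDA231. FBN1, which encodes fibrillin, had 1.92 and 1.70 RPM in PC9, against 46.6 and 32.4 RPM in MDA231, and FSTL1, a secreted SPARC relative, had 68.9 and 62.2 RPM in PC9, against 903 and 975 RPM in MDA231. COL13A1 and COL17A1, which encode transmembrane collagens, and the laminin gene LAMA1 were likewise higher in MDA231, at log2 ratios of -4.53, -3.51 and -2.87.

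Integrins, the receptors for these proteins, were higher in PC9 in 4 of 13 compared (30.8%) and in MDA231 in none, with 16 of 23 found in both tables. ITGB6, the epithelial partner in the integrin that activates latent TGF-beta, had 126 and 117 RPM in PC9, against 0.173 and 0 RPM in MDA231, with a ratio of pooled RPM of 1413 (95% counting interval 391 to 11673). ITGB4, the hemidesmosome integrin, had 145 and 211 RPM in PC9, against 27.1 and 10.8 RPM in MDA231, and this lost the 4-fold difference when the GC trend was removed. ITGB8 and ITGAM were low in both lines, at under 3 RPM, and were under 4-fold with a floor of 10 reads.

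Secreted proteases and their inhibitors leaned towards MDA231. Of 17 compared among 34, 3 (17.6%) were higher in PC9 and 7 (41.2%) in MDA231, beside backgrounds of 9.4% and 5.74%, and the median log2 ratio was -0.62. MMP14, the membrane collagenase that activates MMP2, had 5.57 and 5.88 RPM in PC9, against 435 and 283 RPM in MDA231. The plasminogen system followed. PLAUR, which encodes the urokinase receptor, had 41.8 and 45.3 RPM in PC9, against 425 and 299 RPM in MDA231, and PLAU, which encodes urokinase, had 85.8 and 82.3 RPM in PC9, against 373 and 346 RPM in MDA231. PLAT, which encodes tissue plasminogen activator, had 10.2 and 11.4 RPM in PC9, against 113 and 89.2 RPM in MDA231. Inhibitors of these activators went both ways. SERPINE2 was higher in PC9, with 499 and 470.4 RPM in PC9, against 47.96 and 47.5 RPM in MDA231. SERPINB2 was higher in MDA231, with 0 and 0.0266 RPM in PC9, against 264 and 315 RPM in MDA231. MMP15 was the protease farthest towards PC9, with 62.4 and 84.2 RPM in PC9, against 1.73 and 0.689 RPM in MDA231. KLK6, a kallikrein, had 831 and 849 RPM in PC9 and was not analysed here in MDA231, and MMP3 had 42.01 and 44.9 RPM in MDA231 and was not analysed here in PC9.

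The labelled tissues were weakly marked in both lines. Of 25 lung epithelial genes, 8 were compared. Of these, 3 (37.5%) were higher in PC9 and 1 (12.5%) in MDA231, beside 9.4% and 5.74% of all genes compared. NKX2-1, the defining factor of lung adenocarcinoma, the surfactant gene SFTPB and the phosphate carrier gene SLC34A2 had no read in either PC9 parental library, where 3 reads set a limit of 0.0676 and 0.0799 RPM, and were not analysed here in MDA231. SFTPD, SFTPA2 and SCGB1A1 were at 0.135 RPM or less in PC9. LAMP3, a marker of type II alveolar cells, had 13.4 and 12.6 RPM in PC9, against 1.64 and 1.64 RPM in MDA231, and ABCA3, the lamellar body lipid carrier, had 43.3 and 50.5 RPM in PC9, against 9.83 and 3.36 RPM in MDA231. The ABCA3 difference was lost when the GC trend was removed. LPCAT1 was less than 4-fold apart, with 129 and 139 RPM in PC9, against 48.9 and 39.4 RPM in MDA231. CAV1, a marker of type I cells and of many others, had 254 and 232 RPM in PC9, against 456 and 463 RPM in MDA231. CEACAM6, which lung adenocarcinomas often express, had 114 and 112 RPM in PC9. In bulk RNA, fewer cells of a type and less RNA per cell cannot be told apart.

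Several luminal breast genes were higher in the lung line. Of 23 breast lineage genes, 12 were compared, 4 (33.3%) were higher in PC9 and 1 (8.33%) in MDA231, with a median log2 ratio of -0.61. FOXA1, a pioneer factor of lung and mammary epithelium counted here with the lung genes, had 46.7 and 47.6 RPM in PC9, against 0.0863 and 0.258 RPM in MDA231. GATA3, the luminal master factor, had 32.6 and 39.3 RPM in PC9, against 3.88 and 1.98 RPM in MDA231. ESR1, which encodes the estrogen receptor, was low in both, with 3.90 and 3.78 RPM in PC9, against 0.259 and 0.172 RPM in MDA231. All 3 factors were higher in every PC9 library than in any MDA231 library, while the lines did not overlap for 87.9% of all genes. The estrogen-responsive genes AGR2 and TFF1 were also higher in PC9. AGR2 had 8.95 and 8.01 RPM in PC9, against 0.259 and 0.258 RPM in MDA231, and TFF1 had 1.78 and 2.42 RPM in PC9, against no read in MDA231, a difference that fell under 4-fold with a floor of 10 reads. FOXA2, a factor of foregut endoderm including lung, had 0.383 and 0.506 RPM in PC9, against 23.8 and 17.1 RPM in MDA231, so the FOXA paralogs were reciprocal between the lines. The remaining breast factors were nearer. TFAP2C had 66.9 and 61.04 RPM in PC9, against 64.8 and 64.7 RPM in MDA231, and XBP1 had 32.5 and 31.4 RPM in PC9, against 80.3 and 91.4 RPM in MDA231.

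Basal, squamous and neuroendocrine markers added little. Of 18 basal and squamous genes, 5 were compared and 2 (40%) were higher in PC9, beside 9.4% of all genes compared. TRIM29, a basal epithelial protein, had 88.6 and 92.6 RPM in PC9 and no read in MDA231, at least 351-fold apart, and KRT15 had 18.1 and 21.4 RPM in PC9, against 2.59 and 2.50 RPM in MDA231. KRT6B had 103 and 110.3 RPM in PC9, where reads shared with its near-identical copies make the level uncertain. Of 15 neuroendocrine genes 3 were compared, and 1 (33.3%) was higher in MDA231, beside 5.74% of all genes compared. This was SYT1, a synaptic vesicle protein, with 0.293 and 0.453 RPM in PC9, against 6.21 and 6.03 RPM in MDA231. UCHL1 had 425 and 397 RPM in PC9. Markers of other cell types were sparse. Of 18 leukocyte and endothelial markers, 4 were compared and 3 (75%) were higher in PC9. The summed level of the markers listed for both lines was 41.3 and 44.7 RPM in PC9, against 3.88 and 2.15 RPM in MDA231. CDH5, the endothelial cadherin, made up about as much as the rest, with 21.9 and 23.2 RPM in PC9, against 0.0863 and 0 RPM in MDA231, while the pan-leukocyte gene PTPRC had 0.270 and 0.186 RPM in PC9, against 0.0863 and 0 RPM in MDA231. Of 14 fibroblast and glial markers 3 were compared, with sums of 75.4 and 79.9 RPM in PC9, against 86.1 and 75.6 RPM in MDA231, mostly MBP. Their part in the differences above was not tested.

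Airway secretory and defense genes had the highest median among lists with more than 10 genes compared, and LCN2 was among them. Of 25 listed, 11 were compared, 8 (72.7%) were higher in PC9 and 2 (18.2%) in MDA231, with a median log2 ratio of 6.12. LCN2 (ENSG00000148346.7), which encodes the iron-siderophore carrier lipocalin-2 and is the target of the hairpins in this series, averaged 504 ± 33.2 RPM in PC9, against 0.172 ± 0.122 RPM in MDA231 (SD, n = 2 each). The MDA231 values were 3 reads and 1 read, and the ratio of pooled RPM was 2910.1 (95% counting interval 1136 to 10681). SLPI and PI3, inhibitors of neutrophil elastase, had 167 and 155 and 155 and 156 RPM in PC9 (replicates 1 and 2 of each), against 0 and 0.0861 and 0.0863 and 0.0861 RPM in MDA231. The antiprotease genes were thus at 0 or 1 read per library in MDA231. S100A14 had 229 and 211 RPM in PC9 and no read in MDA231, and S100P had 39.6 and 37.9 RPM in PC9, against 0.259 and 0.172 RPM in MDA231. S100A9, a calprotectin subunit that binds metal ions, had 482 and 573 RPM in PC9 and was not analysed here in MDA231. The acute-phase genes SAA1 and SAA2 were the members higher in MDA231. SAA1 had 5.52 and 5.86 RPM in PC9, against 60.1 and 57.4 RPM in MDA231, and reads can be split between the pair, which are near-identical.

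Genes of iron handling, the process that lipocalin-2 serves, were at least 4-fold apart about as often as all genes. Of 27 listed, 20 were compared, 2 (10%) were higher in PC9, which are LCN2 and TFR2, and 1 (5%), CYBRD1, was higher in MDA231. These shares lie near the 9.4% and 5.74% over all genes compared. The median log2 ratio was 0.50. TFRC, which encodes the transferrin receptor, had 780.2 and 722 RPM in PC9, against 1149 and 1269 RPM in MDA231. FTH1, the ferritin heavy chain, had 1570.2 and 1532 RPM in PC9, against 520.0 and 528 RPM in MDA231, and FTL, the light chain, had 1791 and 1779 RPM in PC9, against 2547 and 1843 RPM in MDA231. CYBRD1, a ferric reductase, had 16.2 and 14.6 RPM in PC9, against 113 and 121 RPM in MDA231.

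Detoxification genes were higher in PC9 in 13 of 33 compared (39.4%) and in MDA231 in 3 (9.09%), out of 44 listed, with a median log2 ratio of 1.09. The aldo-keto reductases, which reduce carbonyl groups on steroids and aldehydes, led them. AKR1C2 had 242 and 228 RPM in PC9 and no read in MDA231, at least 909-fold apart, and AKR1C1 had 99.2 and 90.8 RPM in PC9, against 1.12 and 1.64 RPM in MDA231. Reads can be shared between these near-identical paralogs. AKR1B10 had 102 and 93.3 RPM in PC9, against 0.0863 and 0 RPM in MDA231, which is 1 read. The conjugate exporters ABCC2 and ABCC3 followed, with 303 and 284 and 197 and 209.8 RPM in PC9 (replicates 1 and 2 of each), against 1.90 and 1.55 and 2.85 and 1.72 RPM in MDA231. Of the members higher in MDA231, ALDH2, the mitochondrial aldehyde dehydrogenase, had 1.58 and 2.18 RPM in PC9, against 17.8 and 15.7 RPM in MDA231, and GPX3, a secreted glutathione peroxidase, had 5.88 and 5.22 RPM in PC9, against 26.2 and 26.9 RPM in MDA231.

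In the list of ERBB family genes and partners, the receptors ERBB3 and MST1R were at least 4-fold higher in PC9, and ligands were divided. Of 12 compared among 17, 3 (25%) were higher in each line, with a median log2 ratio of 1.06. EGFR, the driver gene of PC9, averaged 1424 ± 54.6 RPM in PC9, against 385 ± 48.03 RPM in MDA231 (SD, n = 2 each). The libraries did not overlap, but the nearest were 3.31-fold apart, short of the limit. ERBB3, the kinase-impaired partner receptor, had 77.9 and 74.4 RPM in PC9, against 4.49 and 4.56 RPM in MDA231, and ERBB2 had 66.7 and 72.4 RPM in PC9, against 30.6 and 15.6 RPM in MDA231. MST1R, which encodes the RON receptor, had 34.4 and 37.2 RPM in PC9, against 1.64 and 0.603 RPM in MDA231. The receptor values of the lines did not overlap, as was the case for 87.9% of all genes compared. Of the ligands, NRG1, which binds ERBB3, had 1.67 and 1.65 RPM in PC9, against 50.7 and 46.2 RPM in MDA231. HBEGF, which binds EGFR, had 29.8 and 27.5 RPM in PC9, against 192 and 189 RPM in MDA231, while BTC was higher in PC9 with 6.44 and 6.20 RPM in PC9, against 0.518 and 0.947 RPM in MDA231. LRIG1, a negative regulator that removes ERBB receptors, had 0.0676 and 0.0266 RPM in PC9, against 32.95 and 24.5 RPM in MDA231, a log2 ratio of -9.25.

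Of 16 other receptor tyrosine kinases compared among 34, 4 (25%) were higher in PC9 and 3 (18.8%) in MDA231. DDR1, a collagen receptor of epithelia, had 198 and 237 RPM in PC9, against 4.23 and 2.58 RPM in MDA231, and EPHB3 had 15.6 and 18.3 RPM in PC9, against 0.431 and 0.0861 RPM in MDA231. FGFR3 and FGFR1 were opposite. FGFR3 had 6.42 and 8.41 RPM in PC9, against 0.259 and 0.344 RPM in MDA231, and FGFR1 had 13.9 and 14.7 RPM in PC9, against 106 and 72.8 RPM in MDA231. MERTK, a relative of AXL, had 1.78 and 1.52 RPM in PC9, against 23.2 and 21.5 RPM in MDA231. MET, the receptor of hepatocyte growth factor, differed little, with 211 and 186 RPM in PC9, against 138 and 141 RPM in MDA231. Of the 20 output genes of the MAPK pathway, all compared, none was higher in PC9 and 3 (15%) were higher in MDA231, with a median log2 ratio of -0.73. These were ETV1, an ETS factor with 1.06 and 0.905 RPM in PC9, against 86.1 and 92.7 RPM in MDA231, PHLDA1 with a log2 ratio of -3.20 and SPRY2, a feedback inhibitor, with -2.50. CCND1, which encodes cyclin D1, had 379 and 389.9 RPM in PC9, against 443 and 362 RPM in MDA231, and the groups overlapped.

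Cytokine genes leaned towards MDA231 and had the lowest median of the 26 lists. Of 22 compared among 35, 1 (4.55%) was higher in PC9 and 11 (50%) in MDA231, with a median log2 ratio of -2.73. IL1B, which encodes interleukin-1 beta, had 1.71 and 1.73 RPM in PC9, against 235 and 248.8 RPM in MDA231. CSF3, which encodes the granulocyte growth factor G-CSF, had 0.225 and 0.453 RPM in PC9, against 87.1 and 57.5 RPM in MDA231, and CXCL3, a neutrophil chemokine, had 0.180 and 0.133 RPM in PC9, against 30.7 and 35.6 RPM in MDA231. IL24 had 0.0451 and 0 RPM in PC9, against 28.4 and 30.1 RPM in MDA231, and IL13RA2, a decoy receptor, had 0.361 and 0.426 RPM in PC9, against 73.3 and 79.99 RPM in MDA231. In each of these, both MDA231 libraries lay far above both PC9 libraries. IL6 did not reach the limit, with 2.52 and 2.56 RPM in PC9, against 9.66 and 8.87 RPM in MDA231. CXCL16, a membrane-bound chemokine, was the member higher in PC9, with 133 and 136 RPM in PC9, against 0.863 and 0.861 RPM in MDA231.

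Genes of antigen presentation were higher in MDA231 mainly in class II. Of 20 compared among 25, 2 (10%) were higher in PC9 and 6 (30%) in MDA231, with a median log2 ratio of -0.34. Class II genes made up 5 of the 6 on the MDA231 side, and CD274 was the other. CIITA, their master regulator, had no read in PC9, against 4.31 and 2.07 RPM in MDA231, at least 43.3-fold apart. CD74, the invariant chain, had 0.113 and 0.160 RPM in PC9, against 102 and 65.8 RPM in MDA231. HLA-DRB1 had 0.811 and 0.559 RPM in PC9, against 24.1 and 22.04 RPM in MDA231, and HLA-DMB, which helps load peptides, had 0.0676 and 0.0532 RPM in PC9, against 3.19 and 3.01 RPM in MDA231. HLA-DQB1 ran against this, with 7.35 and 8.63 RPM in PC9, against 0.0863 and 0.0861 RPM in MDA231. Of class I, B2M, the shared light chain, had 339 and 315 RPM in PC9, against 609 and 738 RPM in MDA231, less than 4-fold apart, while HLA-C was higher in PC9, with 212 and 250.2 RPM in PC9, against 48.4 and 37.6 RPM in MDA231. The HLA-C difference fell under 4-fold when the GC trend was removed. CD274, which encodes the checkpoint ligand PD-L1, had 8.49 and 6.55 RPM in PC9, against 54.4 and 59.2 RPM in MDA231. HLA genes are variable and alike in sequence, so reads mapped to a reference can be lost or shared between them.

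HOX genes, which record position along the body axis, were low but divided by gene. Of 39 listed, 9 were compared, 6 (66.7%) were higher in PC9 and 1 (11.1%) in MDA231. HOXB7 had 28.3 and 28.9 RPM in PC9, against 0.0863 and 0.344 RPM in MDA231, and its neighbour HOXB9 was reversed, with 0.744 and 0.772 RPM in PC9, against 12.8 and 10.8 RPM in MDA231. HOXB6 had 9.04 and 8.94 RPM in PC9, against 1.55 and 0.775 RPM in MDA231. HOXC9 and HOXC10 were at under 4 RPM in PC9 and lost the difference with a floor of 10 reads. Cancer-testis genes, which are normally silent outside the germ line, were higher in PC9 in 4 of 5 compared (80%) among 25. Over all genes compared the share was 9.4%. MAGEA3 had 176 and 170.3 RPM in PC9 and no read in MDA231, and MAGEA6 had 163 and 163 RPM in PC9, against 0 and 0.258 RPM in MDA231. MAGEA12 had 49.8 and 47.7 RPM in PC9 and no read in MDA231. MAGEA3, MAGEA6 and MAGEA12 are close copies of each other, so they are not separate observations. PAGE5, another gene of this kind, had 92.4 and 102 RPM in MDA231 and was not analysed here in PC9. Of 20 mucin and CEACAM genes only 3 were compared, 2 (66.7%) higher in PC9 and 1 (33.3%) in MDA231. MUC1 had 9.33 and 10.2 RPM in PC9, against 0.173 and 0 RPM in MDA231, CEACAM19 had 14.3 and 18.4 RPM in PC9, against 0.345 and 0.603 RPM in MDA231, and MUC15 had no read in PC9, against 5.61 and 8.87 RPM in MDA231. None of the 18 housekeeping genes was 4-fold apart, and their median log2 ratio was -0.41.

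**Figure D3:**
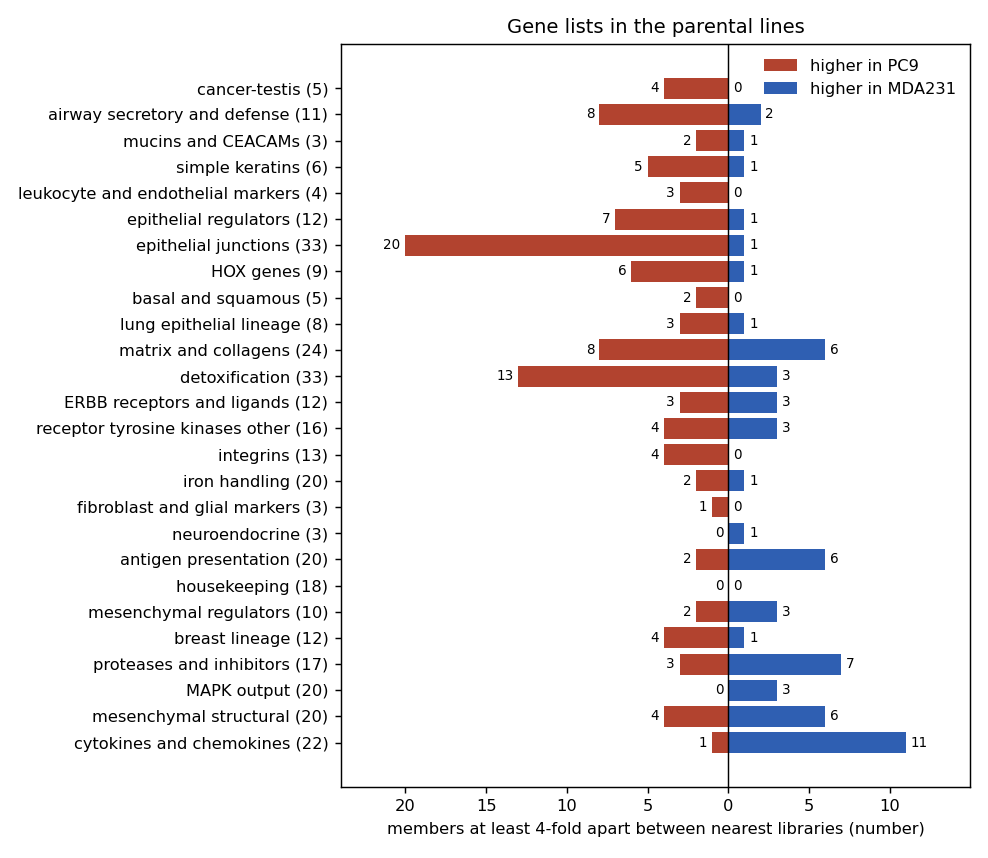
Number of members at least 4-fold apart between the nearest parental libraries in each of the 26 gene lists, with those higher in PC9 drawn to the left and those higher in MDA231 to the right; the number compared stands in brackets, and lists run from the highest median log2 ratio at the top to the lowest. Junction genes have 20 members to the left and 1 to the right, and cytokines have 1 to the left and 11 to the right.

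The differences were then followed into LeptoM shCTL cells, which were sequenced more deeply in MDA231 than the parental cells. Of the 1185 genes higher in parental PC9, 869 (73.3%) were again at least 4-fold higher in PC9 when LeptoM shCTL cells of the lines were compared. Of the 724 higher in parental MDA231, 566 (78.2%) were again higher in MDA231. Only 3 and 4 genes were called the other way. Over the same 12613 genes the LeptoM shCTL comparison called 8.93% higher in PC9 and 6.87% higher in MDA231. All 20 junction genes and all 7 epithelial regulators higher in parental PC9 were called again, as were 10 of 11 cytokine genes and all 6 antigen presentation genes higher in parental MDA231. Matrix genes were the exception, with 2 of 8 called again on the PC9 side, LAMA5 and COL7A1, and a list median of -0.76 in LeptoM shCTL cells, against 1.32 in parental cells.

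Within each line, LeptoM shCTL cells were tested against parental cells for LCN2 and the 14 defining genes. The groups differ in selection and in carrying a hairpin, and in MDA231 also in depth, and these cannot be told apart. The test was limma on log2 values, with Benjamini-Hochberg adjustment over all genes of the line. Beside these genes, 23.8% of 15650 genes rose and 21.8% fell in PC9, and 24.8% of 14387 rose and 23.8% fell in MDA231. VIM fell in PC9, the line that had little of it. It had 0.274 and 0.494 RPM in PC9 LeptoM shCTL cells, against 7.30 and 8.01 RPM in parental PC9, a log2 change of -4.31 ± 0.28 (SE, adjusted p = 1.7e-05). In MDA231 it had 6575 and 6546 RPM in LeptoM shCTL cells, against 5505 and 5053 RPM in parental cells, a change of 0.21 ± 0.06 (SE, adjusted p = 0.0303), and this call was lost with edgeR (adjusted p = 0.0572), with DESeq2 (adjusted p = 0.0744) and in limma without LeptoM shCTL replicate 1, LeptoM shCTL replicate 2 or parental replicate 2 (adjusted p = 0.147, 0.146 and 0.0562). The gap between the lines in VIM widened towards MDA231, with a change of the log2 gap of -4.53 ± 0.29 (SE, adjusted p = 1.09e-08). FN1 had 385 and 384 RPM in PC9 LeptoM shCTL cells, against 2932 and 2694 RPM in parental PC9, a log2 change of -2.89 ± 0.50 (SE, adjusted p = 0.00229). In MDA231 it had 241 and 238 RPM in LeptoM shCTL cells, against 218 and 178 RPM in parental cells, a change of 0.18 ± 0.09 (SE, adjusted p = 0.134). Without MDA231 parental replicate 1 that change passed the threshold (log2 0.29, adjusted p = 0.0143). The lead of PC9 in FN1 was smaller in LeptoM shCTL cells, with a change of the log2 gap of -3.07 ± 0.51 (SE, adjusted p = 0.000157).

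SPARC was all but lost in MDA231 LeptoM shCTL cells, while parental PC9 held only 12 and 13 reads of it to begin with. It had no read in PC9 LeptoM shCTL cells, against 0.270 and 0.346 RPM in parental PC9, at least 4.68-fold lower with LeptoM shCTL set to 3 reads per library. In MDA231 it had 0.160 and 0.0719 RPM in LeptoM shCTL cells, against 75.2 and 76.03 RPM in parental cells, a log2 change of -9.17 ± 0.33 (SE, adjusted p = 1.09e-05). ZEB1 was not changed past the threshold in either line, at 0.98 ± 0.41 (SE, adjusted p = 0.0862) in PC9 and -0.13 ± 0.10 (SE, adjusted p = 0.314) in MDA231. AXL, which is not one of the 14 defining genes, had 1.56 and 2.40 RPM in PC9 LeptoM shCTL cells, against 56.2 and 57.3 RPM in parental PC9, and 1228 and 1168 RPM in MDA231 LeptoM shCTL cells, against 1059 and 812 RPM in parental MDA231.

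Epithelial genes stayed far apart between the lines. KRT19 rose by 0.60 ± 0.09 (SE, adjusted p = 0.00123) in PC9, on the log2 scale, to 2259 and 2163 RPM in LeptoM shCTL cells, and by 2.37 ± 0.27 (SE, adjusted p = 0.000687) in MDA231, to 206 and 154 RPM. ELF3 rose in PC9 with 166 and 164 RPM in LeptoM shCTL cells, against 35.7 and 36.7 RPM in parental cells, a change of 2.17 ± 0.33 (SE, adjusted p = 0.00118). In MDA231 ELF3 had 0.160 and 0.144 RPM in LeptoM shCTL cells, against 0.0863 and 0 RPM in parental cells, and CDH1 had 0.229 and 0.216 RPM in LeptoM shCTL cells, against no read in parental cells. Both were thus detected in LeptoM shCTL cells, but at levels under the 0.258 RPM that 3 reads amount to in the shallower parental libraries, so no change is given for them. CDH1 did not change past the threshold in PC9, at -0.04 ± 0.06 (SE, adjusted p = 0.657). EPCAM fell in PC9, with a log2 change of -0.33 ± 0.06 (SE, adjusted p = 0.00444), and its change in MDA231 was 0.18 ± 0.16 (SE, adjusted p = 0.391). KRT8 rose by 0.36 ± 0.10 (SE, adjusted p = 0.0188) in PC9 and by 1.00 ± 0.27 (SE, adjusted p = 0.0214) in MDA231, and KRT18 by 0.21 ± 0.07 (SE, adjusted p = 0.0331) in PC9. The KRT18 call was lost without any of the 4 PC9 libraries, that of KRT8 in PC9 without any but parental replicate 2, and that of KRT8 in MDA231 without any but parental replicate 1 of that line, with adjusted p of 0.0625 to 0.227 in these fits. KRT18 in MDA231 changed by -0.01 ± 0.14 (SE, adjusted p = 0.957).

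The receptors and LCN2 completed the tested genes. EGFR rose in MDA231 with 724 and 714 RPM in LeptoM shCTL cells, against 419 and 351 RPM in parental cells, a change of 0.81 ± 0.08 (SE, adjusted p = 0.000467), and changed by -0.34 ± 0.18 (SE, adjusted p = 0.15) in PC9, where LeptoM shCTL cells had 1123 and 1158 RPM. ERBB3 rose in PC9 by 0.73 ± 0.11 (SE, adjusted p = 0.000983) on the log2 scale and changed by -0.39 ± 0.15 (SE, adjusted p = 0.066) in MDA231. LCN2 rose in PC9 with 1171 and 1149 RPM in LeptoM shCTL cells, against 480.1 and 527 RPM in parental cells, a change of 1.18 ± 0.25 (SE, adjusted p = 0.00641). In MDA231 it had 0.618 and 0.431 RPM in LeptoM shCTL cells, against 0.259 and 0.0861 RPM in parental cells. The change was 1.49 ± 0.47 (SE, adjusted p = 0.0363) in a limma fit that also held genes under the minimum mean. The parental values were 3 reads and 1 read, at or under the floor of 3 reads, in the shallower libraries. No alternative fit is given for this LCN2 call, so it is weaker than the others. CD44 did not pass the threshold in either line, at -0.27 ± 0.17 (SE, adjusted p = 0.229) in PC9 and -0.12 ± 0.09 (SE, adjusted p = 0.304) in MDA231. NKX2-1 was at or under 3 reads in every PC9 library of these groups.

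**Figure D4:**
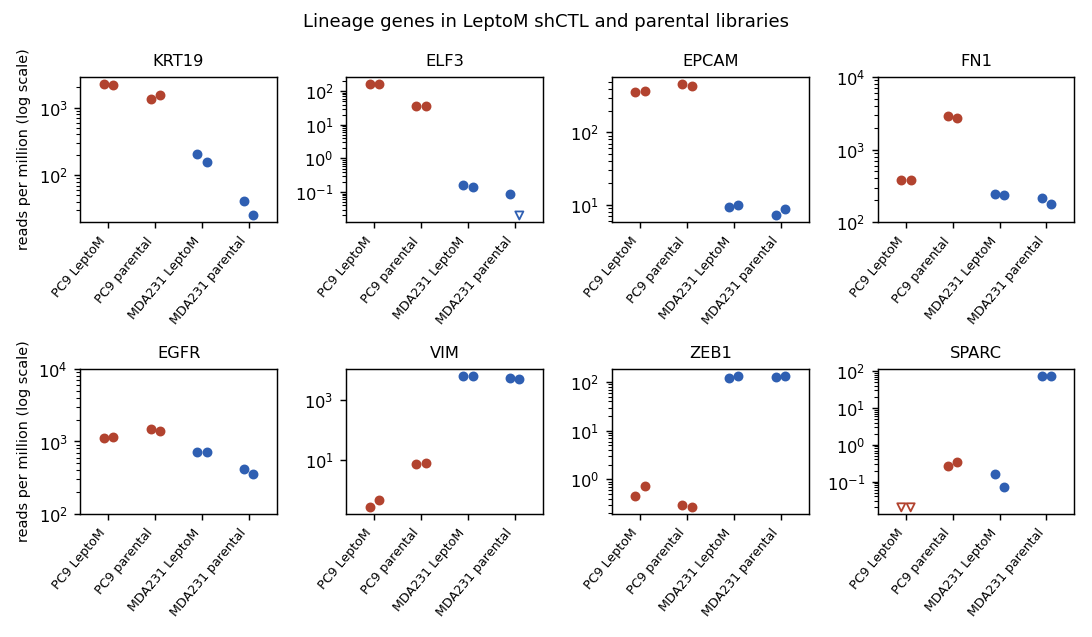
Level of 8 lineage genes in RPM on log axes of different range, 1 panel per gene, with 2 libraries each of PC9 LeptoM shCTL, PC9 parental, MDA231 LeptoM shCTL and MDA231 parental cells from left to right; open triangles mark libraries with no read. VIM and FN1 are lower in PC9 LeptoM shCTL than in PC9 parental cells, KRT19 and EGFR are higher in MDA231 LeptoM shCTL than in MDA231 parental cells, and SPARC is near or at 0 in both LeptoM groups.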

How the data were processed

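RNA was sequenced from cultured cells. Per the submitters' processing notes, HTSeq 0.5.3, DESeq2 1.22.1 and the hg19 build were used; the strand setting is not given in the sources used here. The deposited values are a signal, gene read counts that the authors divided by a size factor per library, in a separate table for each line. Dividing each column by its value per read returned whole reads, within 0.001, for 100.0% of 155632 PC9 and 143632 MDA231 values. Of PC9 reads, 24.4% and 36.5% in the parental columns lay in 4 lines that name no gene and were left out.

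RPM, 4-fold counts, list medians and counting intervals (95%, exact) were computed from those reads. Within a line, limma 3.58.1 (R 4.3.3) with a trended prior was run on log2(value + 1) for genes with a mean of at least 10, over 4 groups, so fold changes of low genes are understated. A gap change is the PC9 effect minus the MDA231 effect, tested with t and adjusted over 13392 genes. edgeR 4.0.16 and DESeq2 1.42.0 on recovered reads, other scalings, filters, floors, thinning, GC correction, a replicate block and leaving out libraries were alternatives. The test scripts were tested on simulated data. Parental replicates differed by more than sampling noise (chi-square per degree of freedom 17.8 in PC9 and 19.2 in MDA231).

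Named genes are LCN2, 14 defining genes, up to 5 called members per list and direction by nearest-library fold, and the 10 such genes per direction over all genes with a line mean of at least 50 RPM. Members, lists and tests were chosen with earlier results of these data known. Further list members were named after their values were seen, among them TJP1, EHF, KLF5, MSN, TFAP2C, TFRC, MET, CCND1, IL6, B2M and the genes given for PC9 or MDA231 alone. Y-linked genes and XIST were left out, and some list members are not reported here. Gene positions are of GENCODE v29 and were matched by gene ID. Same-numbered libraries were not shown to pair.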

Additional observations from a re-analysis of the deposited data

Results flagged for a closer look

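For 7 of the defining genes the change between LeptoM shCTL and parental cells differed between the lines by a test of the difference itself, given as the PC9 effect minus the MDA231 effect on the log2 scale with p adjusted over all 13392 genes. Over those genes, 22.3% changed towards PC9 and 25.1% towards MDA231, so such a difference was common. VIM, the vimentin gene, had a difference of -4.53 (adjusted p = 1.09e-08), with every PC9 LeptoM shCTL library below and every MDA231 LeptoM shCTL library above its parental libraries. FN1, the fibronectin gene, had -3.07 (adjusted p = 0.000157), with both PC9 LeptoM shCTL libraries below the parental ones. KRT19 had -1.77 (adjusted p = 0.000123), as it rose in both lines and more in MDA231. EGFR had -1.15 (adjusted p = 0.000201), with both MDA231 LeptoM shCTL libraries above the parental ones. ERBB3 had 1.12 (adjusted p = 0.000142), having risen in PC9. ZEB1 had 1.11 (adjusted p = 0.0428), although neither line's own change passed the threshold and PC9 levels were 0.464 and 0.730 RPM in LeptoM shCTL cells, against 0.293 and 0.266 RPM in parental cells. That of ZEB1 missed the threshold without PC9 LeptoM shCTL replicate 2, either PC9 parental library, MDA231 LeptoM shCTL replicate 1 or MDA231 parental replicate 2 (adjusted p = 0.0605 to 0.245). EPCAM had -0.505 (adjusted p = 0.0283), having fallen in PC9, and missed it without PC9 parental replicate 1, either MDA231 LeptoM shCTL library or MDA231 parental replicate 1 (adjusted p = 0.0542 to 0.151). LCN2 showed no difference past the threshold, at -0.31 ± 0.54 (SE, adjusted p = 0.662).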

How the results depend on the processing

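Counts of genes at least 4-fold apart depended on the limits set. The main counts were 1185 higher in PC9 and 724 in MDA231. With a mean of at least 10 RPM they were 565 and 392, with 2-fold 2470 and 1976, and with 16-fold 397 and 269. Leaving out each parental library gave 1207 to 1795 and 766 to 819, the highest PC9 count without MDA231 parental replicate 1. Removing a GC trend gave 963 and 699, thinning PC9 to the MDA231 depth 1167 and 718, and a floor of 10 reads 1006 and 724. Of 140 named genes with a ratio, 18 lost the 4-fold difference in at least 1 of these alternatives and no called gene changed sign. The log2 ratio of TFAP2C, near equal levels, turned to 0.00328 with TMM factors, 0.0541 with thinning and -0.0844 to 0.0468 without 1 PC9 library each, and that of CCND1 ran from -0.204 to 0.0869 without 1 MDA231 library each.

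Within PC9, leaving out each library gave 2242 to 3523 genes higher and 1917 to 2838 lower in LeptoM shCTL cells, and within MDA231 1860 to 4863 and 1631 to 4259. Counts fell the most without LeptoM shCTL replicate 1 or replicate 2 of the line, among them 2348 and 2017 without PC9 LeptoM shCTL replicate 2 and 2211 and 2234 without MDA231 LeptoM shCTL replicate 2. Changes that missed the threshold turned sign when 1 library was left out for CDH1 in PC9 (-0.0957 to 0.0190), KRT18 in MDA231 (-0.193 to 0.173) and EPCAM in MDA231 (-0.00557 to 0.365). With a replicate block the counts were 3620 and 3254 in PC9, 3494 and 3290 in MDA231 and 6307 for the gap (6341 without), and no named call changed. The correlation of same-numbered deviations was -0.0101 in PC9 and 0.364 in MDA231. The depth of the MDA231 parental libraries limits what can be said of genes with under 3 reads there.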

Other observations

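Some lineage genes could be read in PC9 or MDA231 alone and entered no comparison; they were picked after their values were seen. In PC9, the keratinocyte serpin SERPINB5 had 59.1 and 59.1 RPM, the kallikrein KLK5 had 82.4 and 86.5 RPM and the cystatin CST6 had 36.4 and 45.2 RPM in the parental libraries. The posterior HOX genes HOXC13 and HOXC11 had 12.2 and 12.7 and 8.61 and 8.28 RPM in the same libraries (replicates 1 and 2 of each). In MDA231, HOXD1 had 3.62 and 4.39 RPM and HOXD3 had 2.07 and 1.64 RPM in the parental libraries.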
